A study of Mus musculus with 6 samples.

Results

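Voltage-gated sodium channels open when a neuron's membrane depolarizes and carry the sodium current that starts and propagates the action potential. Each channel has 1 large pore-forming alpha subunit, which alone can open, pass sodium and inactivate, and smaller beta subunits that cross the membrane once and modify its gating and its place in the membrane. In forebrain neurons the alpha subunits are concentrated at the axon initial segment and the nodes of Ranvier, and mutations of several of their genes are known causes of epilepsy and autism. The 7 genes described here are 4 alpha subunit genes, *Scn1a* (Nav1.1), *Scn2a* (Nav1.2), *Scn3a* (Nav1.3) and *Scn8a* (Nav1.6), and 3 beta subunit genes, *Scn2b*, *Scn3b* and *Scn4b*. They were taken by symbol from the 18254 genes of the normalized read count table, through the GENCODE release M21 names of the Ensembl identifiers, and all 7 were found.

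The samples were medial prefrontal cortex (mPFC) of male mice aged 10 to 12 weeks. *Shank3* TG mice carry a transgene for an EGFP-tagged form of Shank3, a scaffold protein of the excitatory postsynapse, and the WT mice were their littermates on the C57BL/6J background. There were 3 mRNA sequencing libraries for each genotype, named by genotype and a number from 1 to 3, and each was a pool of tissue from a pair of mice, so the spread given here is between pools. The question was whether mRNA levels of the sodium channel genes differed between *Shank3* TG and WT mPFC.

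*Shank3* itself, the gene the transgene adds to, had 17470, 19003 and 16310 normalized read counts in TG-1, TG-2 and TG-3 and 8374, 8173 and 6791 in WT-1, WT-2 and WT-3. Every TG library was above every WT library (log2 fold change 1.18, limma adjusted p = 0.0643, and 0.000437 when the replicate number entered as a block). Libraries held 28363967 to 29447717 normalized counts each. The libraries numbered 3 stood apart from the others in both genotypes. TG-3 and WT-3 both lay outside the range of the other 4 libraries, on the same side, for 40.9% of the 16714 tested genes. Among marker lists, summed excitatory neuron markers were 258540 and 253120 in TG-3 and WT-3 against at most 218880 elsewhere. Of 8 mature oligodendrocyte markers, 0 were higher in TG, against 48.6% of all tested genes, and 7 had an unadjusted p under 0.05 (limma, 8 with the block), against 2.01% (4.98% with the block). Called were 0 of 8 in either fit, against 0% of all tested genes and 0.00598% with the block. Their median log2 fold change was -0.45, and their summed levels were 78046 to 101190 in TG and 116430 to 117780 in WT. Other marker lists had median log2 fold changes of 0.05 (excitatory neuron), -0.09 (parvalbumin interneuron), -0.15 (oligodendrocyte precursor), -0.00 (astrocyte), 0.01 (microglia), 0.00 (endothelial) and 0.23 (choroid plexus), with 0 genes called. Of 6 oligodendrocyte precursor markers 0 were higher in TG, and of 4 tested choroid plexus markers 2 were. *Ttr*, of the choroid plexus list, had a log2 fold change of 2.42 (limma, unadjusted p = 0.0382, adjusted p = 0.9999). It had 127, 23 and 445 normalized counts in TG-1, TG-2 and TG-3 and 14, 13 and 42 in WT-1, WT-2 and WT-3. The part of the marker genes in the sodium channel values was not tested. In bulk tissue, fewer cells of a type and less RNA per cell cannot be told apart.

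The 4 alpha subunits are close relatives, which matters for how reads are assigned among them. The coding sequences of the GENCODE M21 transcripts were aligned in pairs, and identity was counted over aligned positions. *Scn1a*, *Scn2a* and *Scn3a* were between 81.9% and 84.3% identical to one another in coding bases, and *Scn8a* was between 75.1% and 75.3% identical to each. The beta subunits shared 23.6% to 31.03% of their residues.

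Windows of 31 bases that occur in transcripts of another gene made up 7.29% of the windows of *Scn1a*, 9.16% of those of *Scn2a* and 9.57% of those of *Scn3a*, with 822 windows common to *Scn2a* and *Scn3a*. They made up 0.490% of the windows of *Scn8a* and at most 2.20% of those of a beta subunit gene. Salmon divides reads from shared stretches among transcripts by estimation, so the *Scn1a*, *Scn2a* and *Scn3a* values are uncertain by an amount that was not measured here. Of the 7 genes, 4 have a gene on the opposite strand within their bounds, and none of these shares exon bases with them.

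None of the sodium channel genes passed the test between genotypes. With adjustment over 16714 tested genes, 0 of 7 were called (adjusted p = 0.9999 for each, limma), against 0% of all tested genes. At an unadjusted p under 0.05 (limma) the count was 0 of 7, against 2.01% of all tested genes. The TG and WT libraries overlapped for all 7, and 6.02% of tested genes had separate groups. Among the 5666 tested genes whose geometric mean reached 1000 normalized counts, 61 were under 0.05 unadjusted and 213 had separate groups. With 7 genes, a count of 0 does not stand apart from these shares. The median log2 fold change was -0.01, with 3 of 7 genes higher in TG, and the median absolute change was 0.07, against 0.07 over all tested genes and 0.044 over those whose geometric mean reached 1000 normalized counts. The 95% confidence intervals of the 7 genes together ran from -0.52 to 0.40 on the log2 scale, and from -0.34 to 0.29 with the replicate number as a block.

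**Figure D1:**
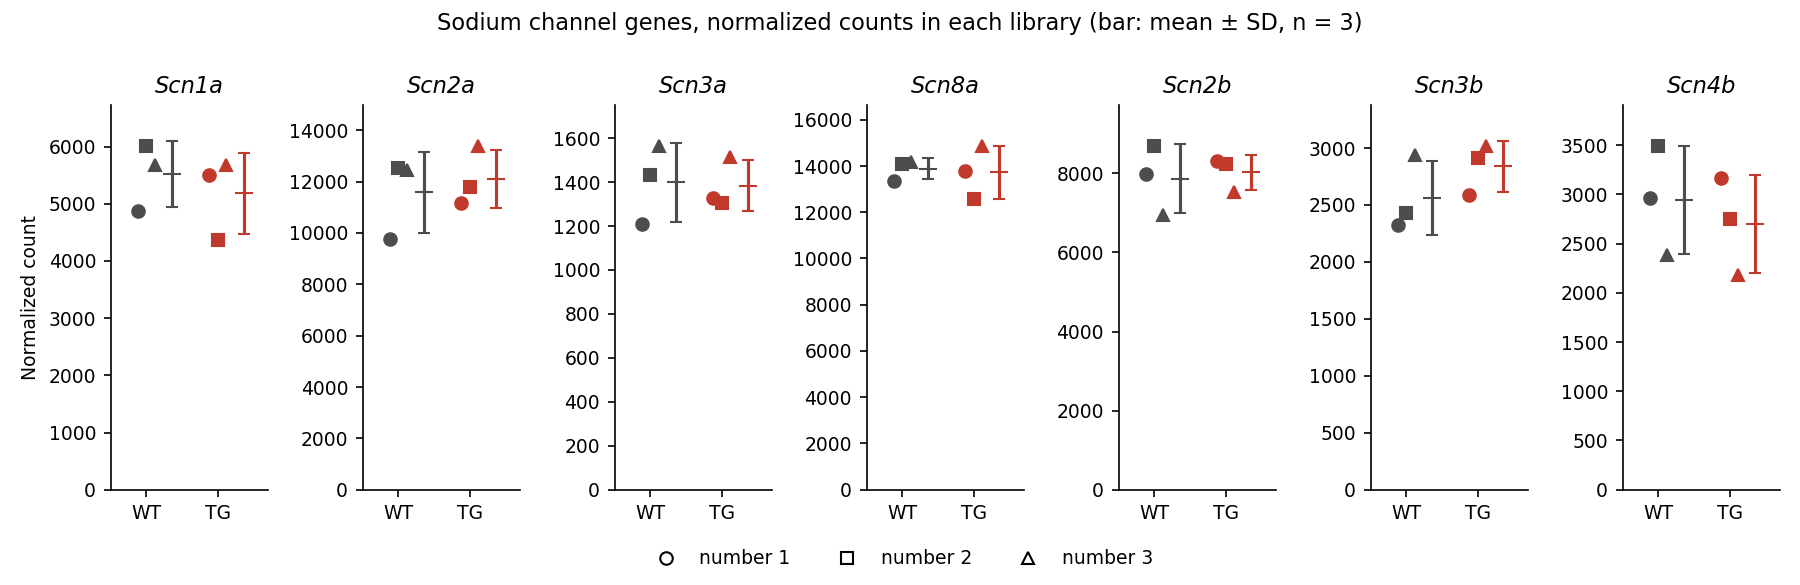
Normalized read counts (y axis, from 0, a scale of its own for each gene) of the 7 sodium channel genes in the WT (grey) and TG (red) libraries, with the symbol giving the replicate number and bars giving the mean ± SD (n = 3). The groups overlap for every gene, and the library numbered 3 is the lowest of its genotype for *Scn2b* and *Scn4b* and TG-3 is the highest TG library for the other 5.

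*Scn1a* encodes Nav1.1, the main alpha subunit of fast-spiking parvalbumin interneurons. On GRCm38 the gene lies at chr2:66270778-66440840 on the minus strand. It had 5505, 4372 and 5669 normalized read counts in TG-1, TG-2 and TG-3 and 4879, 6002 and 5672 in WT-1, WT-2 and WT-3. TG-2 was the lowest and WT-2 the highest of the 6 libraries, and the other 4 lay between them. The log2 fold change was -0.09 ± 0.12 (SE), with a 95% confidence interval of -0.38 to 0.19 (limma, unadjusted p = 0.463). Leaving out TG-2 turned it to 0.023. Of 7 parvalbumin interneuron markers, 5 were also at their lowest in TG-2 (*Pvalb*, *Slc32a1*, *Kcnc1*, *Syt2* and *Cox6a2*), as were 12.7% of all tested genes. The other markers of that list were not, since *Gad1* was at its highest in TG-2, at 7868, and *Tac1* was at 272. TG-2 was looked at because *Scn1a* was lowest there. The summed level of the list was 17129 to 18291 in TG and 18027 to 18175 in WT. The part of these markers in the *Scn1a* values was not tested.

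*Scn2a* encodes Nav1.2, an alpha subunit of excitatory neurons, and lies at chr2:65620771-65767447 on the plus strand. It had 11153, 11788 and 13371 normalized read counts in TG-1, TG-2 and TG-3. In WT-1, WT-2 and WT-3 it had 9763, 12535 and 12455. WT-1 was the lowest library and TG-3 the highest, with the groups overlapping in between. Between genotypes, *Scn2a* had a log2 fold change of 0.07 ± 0.12 (SE), with a 95% confidence interval of -0.21 to 0.34 (limma, unadjusted p = 0.58). It turned to -0.050 without WT-1 and -0.0053 without TG-3.

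*Scn3a* encodes Nav1.3, an alpha subunit best known from the embryonic brain, and lies at chr2:65457118-65567627 on the minus strand, 53.1 kb from *Scn2a*. It had 1328, 1306 and 1516 normalized read counts in TG-1, TG-2 and TG-3 and 1207, 1430 and 1562 in WT-1, WT-2 and WT-3. TG-3 and WT-3 were the highest libraries, and the remaining 4 were mixed. The log2 fold change was -0.01 ± 0.11 (SE), with a 95% confidence interval of -0.28 to 0.25 (limma, unadjusted p = 0.917). Its sign turned in 5 of 16 alternative settings, with 0.071 without WT-3 the farthest.

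*Scn8a* encodes Nav1.6, the alpha subunit of mature axon initial segments and nodes, and lies at chr15:100869858-101045938 on the plus strand. It had 13772, 12553 and 14848 normalized read counts in TG-1, TG-2 and TG-3 and 13369, 14091 and 14187 in WT-1, WT-2 and WT-3. The WT libraries were close together and lay inside the range of the TG libraries. *Scn8a* had a log2 fold change of -0.02 ± 0.08 (SE), with a 95% confidence interval of -0.21 to 0.17 (limma, unadjusted p = 0.819), and it turned to 0.043 without TG-2. This interval was the narrowest of the 7, and the WT coefficient of variation of 3.22% was the smallest.

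The beta subunit genes lie together on chromosome 9. *Scn2b* and *Scn4b* encode the beta2 and beta4 subunits, which bind the alpha subunit through a disulfide bond, and beta4 is known for its part in resurgent sodium current. *Scn3b* encodes beta3, which binds without one. The ends of *Scn2b* (chr9:45117782-45130070) and *Scn4b* (chr9:45138395-45154152) are 8.32 kb apart on the plus strand, and *Scn3b* (chr9:40269217-40291618, plus strand) lies 4826 kb from *Scn2b*.

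*Scn2b* had 8319, 8248 and 7522 normalized read counts in TG-1, TG-2 and TG-3 and 7989, 8681 and 6936 in WT-1, WT-2 and WT-3. TG-3 and WT-3 were the lowest libraries, and the other 4 were mixed between the genotypes. Its log2 fold change was 0.03 ± 0.10 (SE), with a 95% confidence interval of -0.19 to 0.26 (limma, unadjusted p = 0.735), and it turned to -0.054 without WT-3.

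*Scn3b* had 2585, 2915 and 3015 normalized read counts in TG-1, TG-2 and TG-3 and 2326, 2430 and 2936 in WT-1, WT-2 and WT-3. WT-3 was above TG-1 and TG-2, so the groups overlapped. The log2 fold change was 0.15 ± 0.11 (SE), the largest in size of the 7, with a 95% confidence interval of -0.10 to 0.40 (limma, unadjusted p = 0.202). At each number the TG library was above the WT library, by 0.15, 0.26 and 0.04 on the log2 scale for numbers 1, 2 and 3. The pairing of numbers 1 and 2 rests on the labels and is not settled by the data. Blocking on the replicate number gave an unadjusted p of 0.0385 (limma), an interval of 0.01 to 0.29 and an adjusted p of 0.994. In that fit 1 of 7 genes had an unadjusted p under 0.05, against 4.98% of all tested genes, and 0 of 7 were called, against 0.00598%. Without WT-3 the log2 fold change was 0.25 (limma, unadjusted p = 0.0286, adjusted p = 0.9996). Without both libraries numbered 3, an alternative chosen after seeing the data, it was 0.21 (limma, unadjusted p = 0.0489, adjusted p = 0.9998). Each of these also put 1 of 7 genes under 0.05 unadjusted (limma). Over all tested genes that count was 417 of 16682 without WT-3 and 468 of 16634 without both libraries numbered 3. Without WT-1 it was 0.084.

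*Scn4b* had 3166, 2746 and 2180 normalized read counts in TG-1, TG-2 and TG-3 and 2963, 3487 and 2389 in WT-1, WT-2 and WT-3. It varied most among the 7, with a coefficient of variation of 18.3% in TG and 18.7% in WT, and the libraries numbered 3 were the lowest. Its log2 fold change was -0.13 ± 0.17 (SE), with a 95% confidence interval of -0.52 to 0.27 (limma, unadjusted p = 0.482), and it turned to 0.018 without TG-3 and 0.0033 without WT-2. *Scn4b* is strongly expressed by striatal neurons, and the summed striatal markers were also lowest in TG-3 and WT-3, at 4458 and 4363. Only 2 of the 8, *Ppp1r1b* and *Penk*, were below the other 4 libraries there, and *Drd1* was above them, at 296 and 295. Of 8 striatal markers 3 were higher in TG, with a median log2 fold change of -0.07. Their part in the *Scn4b* values was not tested.

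**Figure D2:**
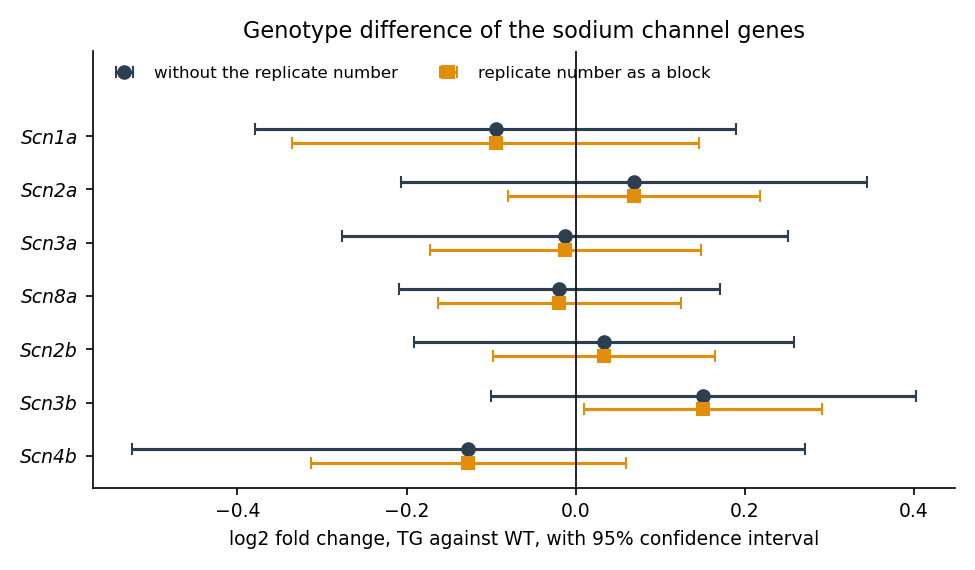
Log2 fold change of TG against WT (x axis) for each sodium channel gene, with 95% confidence intervals from limma without the replicate number (circles) and with it as a block (squares). All intervals without the block include 0, and with the block that of *Scn3b*, 0.01 to 0.29, does not.

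The sign of the TG and WT difference varied with the pair of libraries compared. At number 1, 7 of 7 genes were higher in the TG library, by 0.04 to 0.19 on the log2 scale, with 50.4% of all tested genes higher. At number 2, 1 of 7 was higher (*Scn3b*), the median difference was -0.13, and 48.4% of all tested genes were higher. At number 3, 4 of 7 were higher, between -0.13 and 0.12, with 48.1% of all tested genes higher. These are single libraries of each genotype, and no test was made on them.

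The libraries numbered 3 differed from the others in the sodium channel genes too. TG-3 and WT-3 were both outside the range of the other 4 libraries for 5 of 7 genes, against the 40.9% of all tested genes given above and 52.3% of the abundant ones, whose geometric mean reached 1000 normalized counts. They were above the others for *Scn3a*, *Scn8a* and *Scn3b* and below for *Scn2b* and *Scn4b*. The difference of the library numbered 3 from the others of its genotype had the same sign in TG and WT for 7 of 7 genes, and for 72.2% of all tested genes and 81.8% of the abundant ones. *Scn4b* was lower by a like amount in each genotype (-0.44 in TG and -0.43 in WT, log2). Over the 7 genes, the median absolute genotype difference was 0.07. That of the difference of the library numbered 3 was 0.20, against 0.17 over all tested genes and 0.14 over the abundant ones. By length of exon sequence, the median of all tested genes was 0.06 under 2 kb, -0.0022 from 2 to 4 kb, -0.02 from 4 to 6 kb, -0.02 from 6 to 10 kb and 0.01 above.

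**Figure D3:**
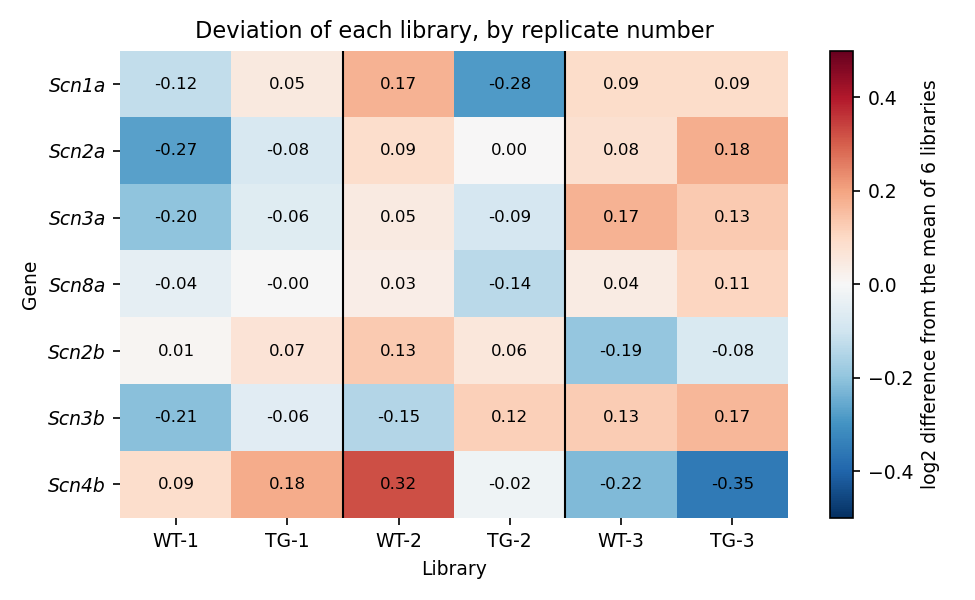
Log2 difference of each library (columns, paired by replicate number) from the gene's mean over 6 libraries (rows, the 7 sodium channel genes; red higher, blue lower). The columns WT-3 and TG-3 are alike, with *Scn2b* and *Scn4b* low and the other 5 genes high.

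For each gene, the member and the other genes with the highest correlation over the 6 libraries were picked. High values are partly a result of this picking, and no chance level was estimated. As a description, over libraries that share their normalization and the split by number, Pearson's r of log2 values was 0.889 between *Scn1a* and *Scn8a*, 0.891 between *Scn2a* and *Scn3a* and 0.841 between *Scn2b* and *Scn4b*. *Scn3b* was most like *Scn2a* (0.701) and ran opposite to *Scn4b* (-0.824). Among the 5685 genes averaging 1000 normalized counts or more, those most like a member were *Ndfip2*, *Osbpl1a* and *Ipo11* for *Scn1a* (0.993, 0.988 and 0.978). For *Scn2a* they were *Crim1*, *Fmn2* and *Necab1* (0.983, 0.982 and 0.978), and for *Scn3a* *Ubap2l*, *Per1* and *Emc2* (0.996, 0.991 and 0.990). For *Scn8a* they were *Ube2e2*, *Arfgef2* and *Dbp* (0.979, 0.9748 and 0.973). For *Scn2b* they were *Slc39a9*, *Smu1* and *Rap1gds1* (1.00, 0.998 and 0.994), for *Scn3b* *Meis2*, *Pcbp3* and *Nwd1* (0.990, 0.986 and 0.981) and for *Scn4b* *Thumpd1*, *Lin7c* and *Pex5l* (0.998, 0.991 and 0.990). The number of genes over 0.95 ran from 7 for *Scn3b* to 209 for *Scn2b*.

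Levels of different genes were compared per kilobase of merged exon, which includes untranslated sequence. The beta subunit genes have 645 to 684 coding bases in 4656 to 5461 merged exon bases, so their levels depend strongly on this choice. *Scn2b* was the highest of the 7 at 1707 normalized counts per kb, averaged over 6 libraries, and its range did not overlap that of *Scn2a*, the next at 930. *Scn8a* followed at 876, below *Scn2a* in 5 of 6 libraries but with overlapping ranges, so their order is not settled. The order also depends on the length used. *Scn8a* had the higher mean count (13803 against 11844 for *Scn2a*) and the shorter coding sequence (5964 against 6018 bases). Per kilobase of coding sequence it would therefore stand above *Scn2a*. *Scn4b* at 566, *Scn3b* at 495 and *Scn1a* at 480 came next, and neighbours among these overlapped. *Scn3a* was the lowest at 112, below *Scn1a* in 6 of 6 libraries.

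The mix of alpha subunits was compared as each gene's share of the summed alpha level per kb, a quantity that does not depend on library scaling. *Scn1a* took 21.02%, 17.7% and 19.4% in TG-1, TG-2 and TG-3 and 20.4%, 21.3% and 20.3% in WT-1, WT-2 and WT-3. Its share was 19.4% ± 1.67 in TG and 20.6% ± 0.558 in WT (SD, n = 3, two-sided exact permutation p = 0.3, adjusted 0.8 over 4 shares). *Scn2a* took 37.3%, 41.7% and 40.05% in TG-1, TG-2 and TG-3 and 35.7%, 38.9% and 38.9% in WT-1, WT-2 and WT-3. Its share was higher in the TG library at each number, though the groups overlapped, and was 39.7% ± 2.25 in TG and 37.8% ± 1.87 in WT (SD, n = 3, exact permutation p = 0.4, adjusted 0.8, pairing not used). *Scn8a* took 36.3% ± 0.737 and 36.9% ± 2.26, and *Scn3a* 4.63% ± 0.0940 and 4.68% ± 0.272 (exact permutation p = 1 for both). The summed alpha level was 2397 ± 206 in TG and 2398 ± 215 in WT normalized counts per kb (SD, n = 3, exact permutation p = 1). With 3 against 3, this test cannot go below 0.1.

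**Figure D4:**
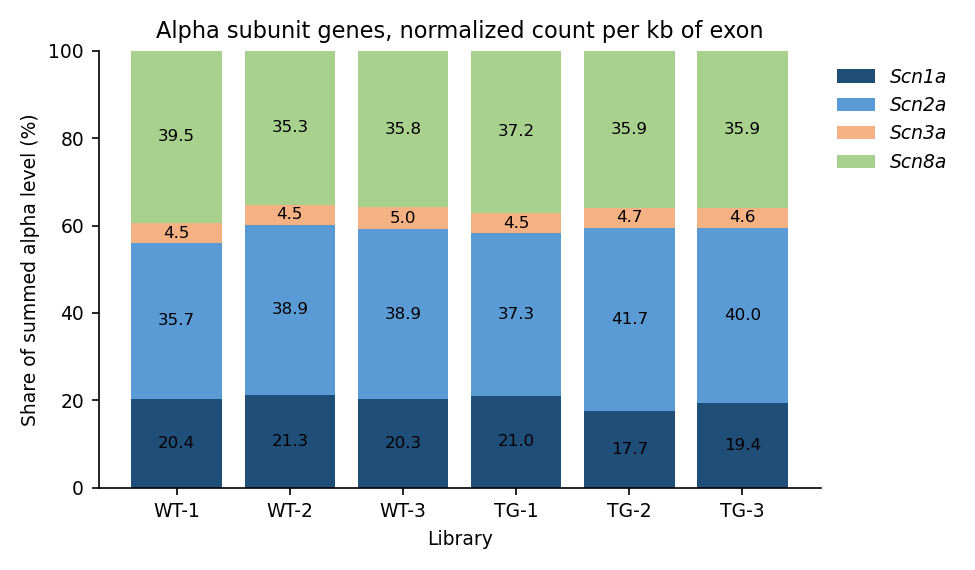
Share (y axis, percent) of *Scn1a*, *Scn2a*, *Scn3a* and *Scn8a* in the summed normalized count per kb of the 4 genes in each library. *Scn2a* and *Scn8a* each hold 35.3% to 41.7% of every library, and *Scn3a* at most 4.99%.

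Of the other sodium channel subunits, 6 of 7 listed were in the table and 5 were abundant enough to test. *Scn7a* was the 1 gene among them with an unadjusted p under 0.05. It encodes Nax, a relative of the voltage-gated channels that responds to the concentration of sodium. *Scn7a* had 218, 197 and 201 normalized read counts in TG-1, TG-2 and TG-3 and 156, 142 and 157 in WT-1, WT-2 and WT-3, with every TG library above every WT library. The log2 fold change was 0.44 ± 0.12 (SE, limma, unadjusted p = 0.00587, adjusted p = 0.9999), and it did not pass the adjusted test with the block either (adjusted p = 0.572). Among 7 leptomeningeal markers, genes of the membranes around the brain, 0 were called with or without the block. Their log2 fold changes were above 0 for 7 of 7, with a median of 0.29, and 2 had an unadjusted p under 0.05 (4 with the block), where all tested genes gave 2.01% and 4.98%. Summed levels were 2208 to 2572 in TG and 1851 to 2224 in WT. Their part in the *Scn7a* values was not tested.

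*Scn9a* and *Scn10a*, alpha subunit genes of sensory neurons, had log2 fold changes of -0.18 ± 0.25 and 0.74 ± 0.57 (SE), at means of at most 123 and 8.23 normalized counts. *Scn11a* was under the abundance limit, at 1.27 ± 0.432 in TG and 2.39 ± 0.459 in WT (SD, n = 3), and was not tested.

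Around the channels, the anchors, partners and sodium transporters had small differences and no call. Of 7 genes for anchors at the axon initial segment and node, 3 were higher in TG (median log2 fold change -0.04). *Ank3*, ankyrin-G, which tethers the channels to the spectrin cytoskeleton, had -0.11 ± 0.09 (SE) and was lower in TG at each number. *Sptan1*, the alpha-spectrin gene, had 0.03 ± 0.11. Of 12 genes for channel-binding proteins, among them fibroblast growth factor homologous factors and calmodulins, 10 were higher (median 0.05), with *Calm3* at 0.07 ± 0.08.

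Of 4 sodium leak channel genes, 1 was higher (median -0.04), with the pore gene *Nalcn* at 0.04 ± 0.08 and its partner *Unc80* at -0.04 ± 0.09. Of 6 sodium pump genes, which restore the gradient that the channels use, 3 were higher (median 0.01), with *Atp1b1* at -0.02 ± 0.11. Over these 34 tested genes of 5 lists, 20 were higher, the median log2 fold change was 0.02, and 1 (*Scn7a*), or 2.94%, had an unadjusted p under 0.05. The shares of all tested genes are those given above, 48.6% and 2.01%.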

How the data were processed

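mRNA of mPFC was sequenced in 6 libraries, 3 TG and 3 WT. The authors quantified transcripts with Salmon 0.9.1 on GRCm38 with GC bias correction, summed them to genes with tximport and divided by size factors in DESeq2 1.19.11 (R 3.6.0, versions from the submitters' processing notes). The deposited signal is normalized read counts, not whole reads, so read depth was unknown and no counting interval was given. Of 18254 genes, 18231 were found in GENCODE M21.

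The 16714 genes averaging 5 or more normalized counts were fitted on log2(normalized count + 1) with limma 3.58.1 (R 4.3.3, lmFit, eBayes with a mean-variance trend), with genotype alone, since no design formula is given in the sources used here, two-sided, Benjamini-Hochberg adjusted over all tested genes, threshold 0.05. Fold changes are on that scale. The replicate numbers come from the library labels. Deviations from the genotype mean correlated at 0.302, 0.332 and 0.616 between same-numbered libraries and at -0.443 to 0.266 otherwise. TG-1 with WT-2 (0.266) and TG-2 with WT-1 (0.227) were close to the same-numbered 0.302 and 0.332. Only the pair at 0.616 stood apart, so the correlations do not settle how numbers 1 and 2 pair. The block takes their pairing from the labels alone. The study's methods speak of pairs of RNA samples, and nothing states what a number marks. The z-scores had a width (interquartile range over that of a normal) of 0.731 without the block and 0.996 with it. Shares were compared with exact permutation tests (scipy 1.17.1). Coding sequences were aligned with Biopython 1.88.

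Members and lists were chosen with earlier results of these data known. Named were the members, *Shank3*, all other subunits, each pathway list's 2 most abundant genes and any with an unadjusted p under 0.05, and the 3 genes most like each member, but some genes that this rule names are not reported here. Some marker genes were named after their values were seen. The settings varied were the pseudocount (0.1 or 5), the abundance limit (none, or 50), upper quartile and quantile scaling, no trend, the block, an empirical null and leaving out each library, with leaving out both libraries numbered 3 added after seeing the data.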

Additional observations from a re-analysis of the deposited data

How the results depend on the processing

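In all 16 alternatives 0 of the 7 sodium channel genes were called. Over all tested genes the count called was 0, and became 1 with upper quartile scaling, 1 with the replicate block, 26 with the empirical null and 1 without both libraries numbered 3, and it was 0 to 1 when 1 library was left out (1 without WT-3). At an unadjusted p under 0.05 there were 336 genes, 833 with the replicate block, 1215 with the empirical null, and 219 without TG-1 to 417 without WT-3. Pairing by the block changed no call of a sodium channel gene. Of the 42 log2 fold changes with 1 library left out, 11 turned sign. In 5 settings (no filter, a mean of at least 50, no trend, the block and the empirical null) they could not change. None of the 7 sodium channel genes crossed the threshold in these 16 settings. Leaving out 1 library gave log2 fold changes of -0.18 to 0.023 for *Scn1a*, -0.050 to 0.13 for *Scn2a*, -0.115 to 0.071 for *Scn3a*, -0.078 to 0.043 for *Scn8a*, -0.054 to 0.11 for *Scn2b*, 0.084 to 0.25 for *Scn3b* and -0.27 to 0.018 for *Scn4b*, and a median of -0.050 to 0.027. Without both libraries numbered 3, *Scn3a* was at 0.0034 and *Scn2b* at -0.0077. The share differences (percentage points, TG minus WT) ranged from -2.09 to -0.424 for *Scn1a*, 0.768 to 3.05 for *Scn2a*, -0.13 to 0.112 for *Scn3a* and -1.31 to 0.762 for *Scn8a*. The cause was not tested.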
